A study of Mus musculus with 9 samples.

Results

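A set of 10 genes of natural killer (NK) cells and of cytotoxicity was followed in splenic B cells by whole-genome bisulfite sequencing, an assay in which unmethylated cytosines are converted and methylated ones are kept, so that each CpG gets a methylation level. The genes were chosen by name: Klrb1c, Ncr1, Klrk1, Klrd1, Gzma, Gzmb, Prf1, Nkg7, Eomes and Il2rb, which are 10 of 20665 autosomal protein-coding genes. Methylated and covering reads were summed over the ends, the body and the low-methylated runs of each gene, within its annotated span and 5 kb on each side. The mice were homozygous (HOM) or heterozygous (HET) for the Kmt2d point mutation Ile5482Asn, or wild type (WT). Kmt2d codes for an enzyme that methylates histone H3 at lysine 4, and the question was whether DNA methylation differs between these genotypes. The labels list 2 B cell samples per genotype, bulk B cells from spleen with no treatment, besides blood samples not analysed here. The strain, age and sex of the mice, and how many animals gave a sample, were not stated in the labels. The column names of HOM and HET, but not of WT, also carry ENU, which names a mutagen.

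For each genotype the table held 1 set of counts, here termed a library, and does not say whether a set is 1 of the 2 samples or pools both. No difference below therefore has a replicate check, and each test compares libraries, not genotypes. The libraries held 215454437 CpG reads in HOM, 282430649 in HET and 200824258 in WT. Over all autosomal CpGs the level was 72.3% in HOM, 75.5% in HET and 76.0% in WT, so HOM minus WT was -3.70 points and HOM minus HET -3.20 points. Defining B cell genes had a less methylated end below 50% in 8 of 8 cases in each library. The median of that end over the 8 B cell markers was 21.8% in HOM, 14.5% in HET and 19.1% in WT, against 58.4%, 56.3% and 54.4% over the 10 genes described here. The less methylated end of 8 T cell markers had a median of 48.0% in HOM, 47.0% in HET and 45.2% in WT, and that of 8 myeloid markers 50.03%, 55.1% and 48.3%. The purity of the cells was not measured otherwise, and the part of other cell types in the results was not tested.

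NK cells kill infected and transformed cells by releasing granules that hold perforin and granzymes, and they weigh signals from activating and inhibitory surface receptors before they do so. Eomes, a T-box transcription factor, and signals of interleukin 15 through the receptor chain encoded by Il2rb drive their development and survival. B cells do not use this killing programme, and starts of genes that a cell type leaves unused are often methylated where they hold few CpGs, whereas CpG-rich starts tend to stay unmethylated.

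The sequences before the annotated starts show how the genes differ in CpG content. RefSeq (GRCm38.p6) gave the 250 bases upstream for 8 of the 10 genes, and not for Klrd1 and Il2rb. Each is printed 5′ to 3′ on the strand of its gene, with every CG in capitals, and every CG of the 8 sequences was a CpG of the table at the same position. The motif searched was CG, which reads the same on both strands, and 92.1% of 32851 such upstream sequences held it, with a median of 6. Eomes had 8 CGs (chr9:118477939-118478188, + strand), Prf1 had 4 (chr10:61297586-61297835, + strand) and Nkg7 had 2 (chr7:43436888-43437137, + strand). Gzma had 3 (chr13:113100982-113101231, - strand), Gzmb had 1 (chr14:56262335-56262584, - strand) and Klrb1c had 1 (chr6:128788642-128788891, - strand). Klrk1 had 4 and Ncr1 had 0. The 6 sequences below include the CpG-rich start of Eomes and the starts with a single CG, Gzmb and Klrb1c. The others are from Prf1, Nkg7 and Gzma, whose wider start windows, described further on, were partly methylated.
Eomes: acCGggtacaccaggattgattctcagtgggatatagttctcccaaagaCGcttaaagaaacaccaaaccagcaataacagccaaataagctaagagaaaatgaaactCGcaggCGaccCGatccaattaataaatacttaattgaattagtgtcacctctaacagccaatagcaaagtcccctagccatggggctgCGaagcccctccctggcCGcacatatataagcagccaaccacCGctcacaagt
Prf1: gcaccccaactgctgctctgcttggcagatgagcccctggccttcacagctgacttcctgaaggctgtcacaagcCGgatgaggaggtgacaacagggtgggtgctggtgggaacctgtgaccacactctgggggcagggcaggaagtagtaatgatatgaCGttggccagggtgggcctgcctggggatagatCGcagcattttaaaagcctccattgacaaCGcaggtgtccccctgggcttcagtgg
Nkg7: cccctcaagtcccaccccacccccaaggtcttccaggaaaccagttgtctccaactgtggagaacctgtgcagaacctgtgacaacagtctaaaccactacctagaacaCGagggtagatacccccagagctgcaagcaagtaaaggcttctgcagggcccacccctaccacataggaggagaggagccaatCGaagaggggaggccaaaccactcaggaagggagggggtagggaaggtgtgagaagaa
Gzma: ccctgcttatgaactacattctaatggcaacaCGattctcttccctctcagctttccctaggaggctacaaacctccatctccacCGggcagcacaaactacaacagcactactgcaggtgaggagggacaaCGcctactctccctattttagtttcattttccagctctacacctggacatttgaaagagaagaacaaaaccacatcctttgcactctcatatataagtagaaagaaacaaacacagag
Gzmb: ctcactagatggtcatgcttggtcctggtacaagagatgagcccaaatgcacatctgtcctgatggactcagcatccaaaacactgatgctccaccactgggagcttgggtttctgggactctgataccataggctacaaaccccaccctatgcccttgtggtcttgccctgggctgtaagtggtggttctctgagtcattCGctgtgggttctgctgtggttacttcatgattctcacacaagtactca
Klrb1c: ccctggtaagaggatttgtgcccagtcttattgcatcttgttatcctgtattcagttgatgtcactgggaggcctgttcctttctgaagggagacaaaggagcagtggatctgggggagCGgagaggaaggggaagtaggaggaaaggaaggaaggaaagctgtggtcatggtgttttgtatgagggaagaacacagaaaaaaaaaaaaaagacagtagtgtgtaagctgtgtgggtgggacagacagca

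Over the CGs of those 250 bases, Eomes stood at 2.04% in HOM, 2.75% in HET and 0% of 134 reads in WT. Prf1 stood at 9.09% in HOM, 8.47% in HET and 7.89% in WT, and Nkg7 at 6.98% in HOM, 3.77% in HET and 13.8% in WT. Gzma, whose CGs were partly methylated, stood at 23.5% in HOM, 25.0% in HET and 34.7% in WT. The single CG of Gzmb stood at 43.3% of 30 reads in HOM, 31.8% of 22 reads in HET and 22.2% of 27 reads in WT, and HOM minus WT was 21.1 points with a 95% counting interval of -3.35 to 42.1. Klrk1, with 4 CGs, stood at 38.9% in HOM, 56.3% in HET and 42.9% in WT. The single CG of Klrb1c had 0 reads in HOM and stood at 25% of 8 reads in HET and 12.5% of 16 reads in WT. The counting intervals of all differences between libraries included 0 at these upstream CGs, so none was detectable at this depth. Intervals here and below are Wilson's for a level and Newcombe's for a difference, and they cover counting error only.

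The HOM library lacked reads over much of Klrb1c, which encodes the NK1.1 receptor of the NKR-P1 family, and this bears on every value of that gene. Of CpGs in and around Klrb1c that had at least 5 reads in another library, 46 of 118 had 0 reads in HOM (39.0%), against 8 of 114 in HET (7.02%) and 4 of 96 in WT (4.17%). Only 19 of 20092 genes, or 0.0946%, had a share at least as high in HOM. Within the annotated span of Klrb1c, 12 of 61 CpGs had reads in HOM, 49 in HET and 56 in WT, with 163, 476 and 518 reads in these libraries. The longest stretch without a HOM read was 23 CpGs over 3142 bp (chr6:128785815-128788956, GRCm38.p6), where HET had 88 reads and WT 155. Klrd1, also in the NK gene complex of chromosome 6, had 0 reads at 15 of 101 such CpGs in HOM (14.9%), against 5.32% in HET and 3.16% in WT. Klrk1, in the same complex, did not share this by that measure, with 5.80% in HOM, 5.26% in HET and 5.97% in WT. Its reads per CpG were nonetheless low, at 0.679 of the library mean in HOM, 0.775 in HET and 0.837 in WT. At Klrb1c these values were 0.642, 0.897 and 1.05. Of all 89 CpGs in and around Klrk1, 17 had 0 reads in HOM, 13 in HET and 9 in WT. Klr genes have close paralogs, and how the authors' mapping treated reads that match several copies was not given in the labels. Variant-like CpGs stood at 10% or less in a library and 80% or more in another, with at least 5 reads. Over the genome their rates in HOM, HET and WT were in the proportion 2.47 to 1.95 to 0.666. Klrb1c with its flanks held 1 in HOM, 0 in HET and 0 in WT. Why HOM lacked reads at these genes was not tested, neither for the mapping nor for variant-like CpGs.

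**Figure D1:**
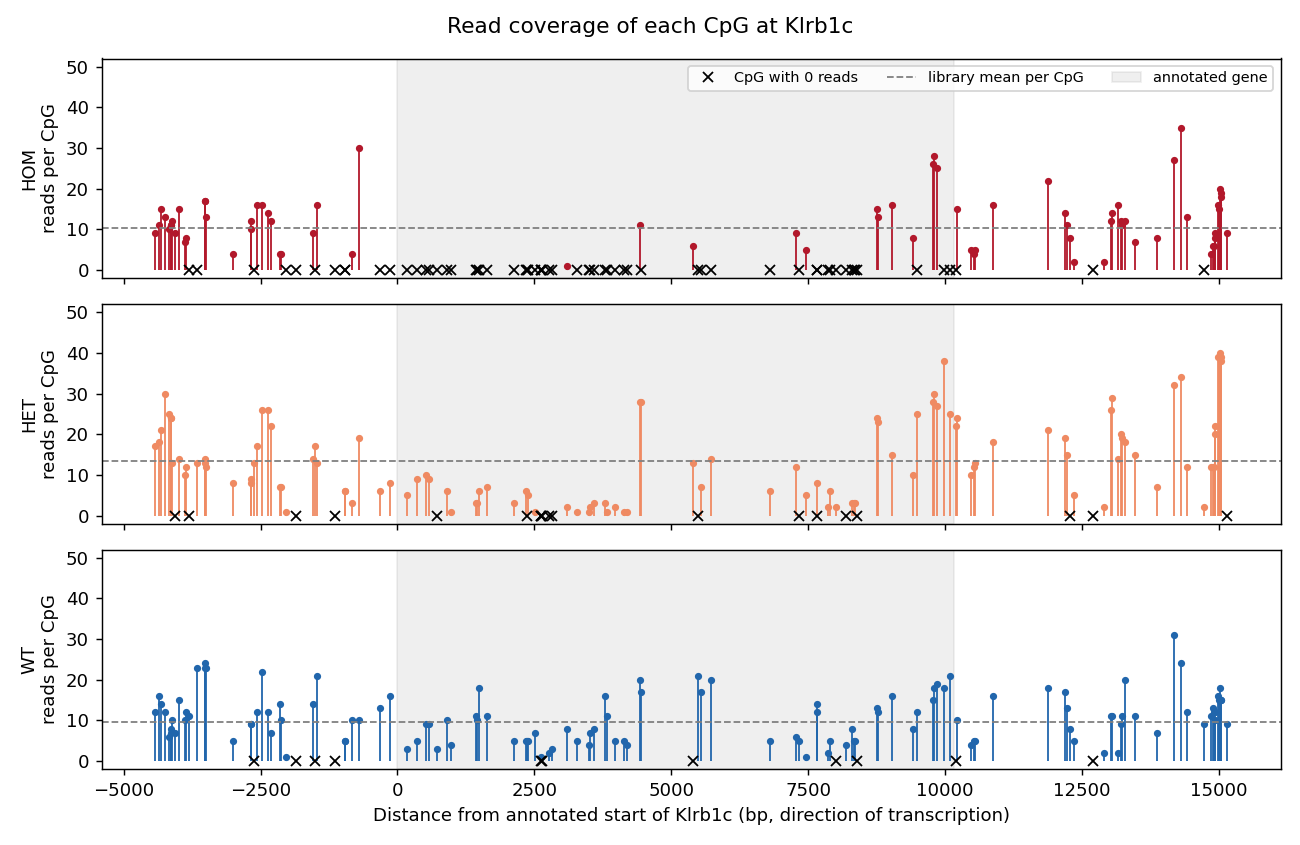
Reads per CpG against distance from the annotated start of Klrb1c in base pairs, 1 panel per library (HOM, HET, WT from top to bottom), with crosses at CpGs without reads, a dashed line at the library mean and shading over the annotated gene. Most CpGs inside the gene carry a cross in HOM (12 of 61 have reads), whereas 49 have reads in HET and 56 in WT.

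Where all libraries could be read, CpGs in and around Klrb1c were mostly highly methylated. Over the 57 of them with at least 5 reads in every library, the level was 85.2% in HOM, 87.5% in HET and 87.7% in WT, with 95% intervals of 82.6 to 87.5, 85.5 to 89.2 and 85.2 to 89.8. These intervals overlap. Most of the 57 lie in the 5 kb flanks, since only 12 CpGs within the annotated span had reads in HOM. Inside the gene, the CpG at position 128784214 was low. It had 2 of 11 reads methylated in HOM, 8 of 28 in HET and 6 of 20 in WT. Over the whole gene with its flanks the level was 83.5% in HOM, 79.5% in HET and 83.8% in WT.

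At the annotated starts, the 8 genes with an assigned start ran from unmethylated to highly methylated. A gene end was taken as the window from 1000 bp outside to 500 bp inside the span. Over the 64 CpGs of its start window, Eomes was nearly unmethylated in every library, at 1.87% of 1179 reads in HOM, 1.40% of 1644 in HET and 1.12% of 1073 in WT. Prf1, which encodes the pore-forming perforin, was partly methylated at its start, at 34.1% in HOM, 36.4% in HET and 36.2% in WT. Gzma, a granzyme with tryptase activity, stood at 41.3% in HOM, 44.6% in HET and 49.3% in WT. Nkg7, which encodes a granule membrane protein needed for granule release, stood at 42.3% in HOM, 40.5% in HET and 34.8% in WT. These 3 starts of granule genes lay between the unmethylated Eomes and the methylated receptor genes.

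The receptor genes and Gzmb had the most methylated starts. Gzmb, which encodes the granzyme that cleaves caspases, stood at 70.1% in HOM, 67.9% in HET and 74.5% in WT. Klrk1, the activating receptor NKG2D, stood at 64.7% of 34 reads in HOM, 73.3% of 60 in HET and 59.6% of 47 in WT. Klrb1c stood at 79.4% in HOM, 74.2% in HET and 73.1% in WT, over 34, 62 and 67 reads. In HOM only the CpGs at positions 128789334 (30 reads) and 128789466 (4 reads) of this window were read. The HOM level of Klrb1c therefore does not cover the rest of its start window. Ncr1, the activating receptor NKp46 and a defining NK marker, stood at 82.1% in HOM, 85.5% in HET and 68.5% in WT over 84, 110 and 89 reads. At Ncr1, HET minus WT was 16.92 points (95% interval 5.24 to 28.49) and HOM minus WT 13.60 points (0.69 to 25.86), but neither passed the adjusted Fisher's exact test over all gene ends (Benjamini-Hochberg adjusted p = 0.0801 and 0.218). With CpGs of at least 5 reads only, they were 8.32 and 6.47 points.

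In the order of start levels, Eomes was lowest in each library, and its next neighbour lay 32.2 points above it in HOM, 35.0 in HET and 33.7 in WT. Prf1, Gzma and Nkg7 did not differ beyond counting error from their neighbours among themselves in HOM and HET, while in WT Gzma stood 13.1 points above Prf1 (5.92 to 20.1). Only neighbours were compared, so Gzma against Prf1 in HET, where Nkg7 lay between them, was not. Gzmb, Klrk1, Klrb1c and Ncr1 had intervals that included 0 for each difference between neighbours among these 4, in each library. In WT the step from Gzma to Klrk1, 10.3 points, also had an interval that included 0 (-4.88 to 24.1), so counting error did not separate those neighbours. Start windows of all genes had a median of 13.3% in HOM, 15.2% in HET and 14.7% in WT, over a median of 51 CpGs. The 8 starts described here had medians of 53.5%, 56.3% and 54.4%, over a median of 13.5 CpGs. Only 1 of the 8 lay below 10% in each library, against 43.8% of all start windows in HOM, 41.6% in HET and 41.5% in WT.

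**Figure D2:**
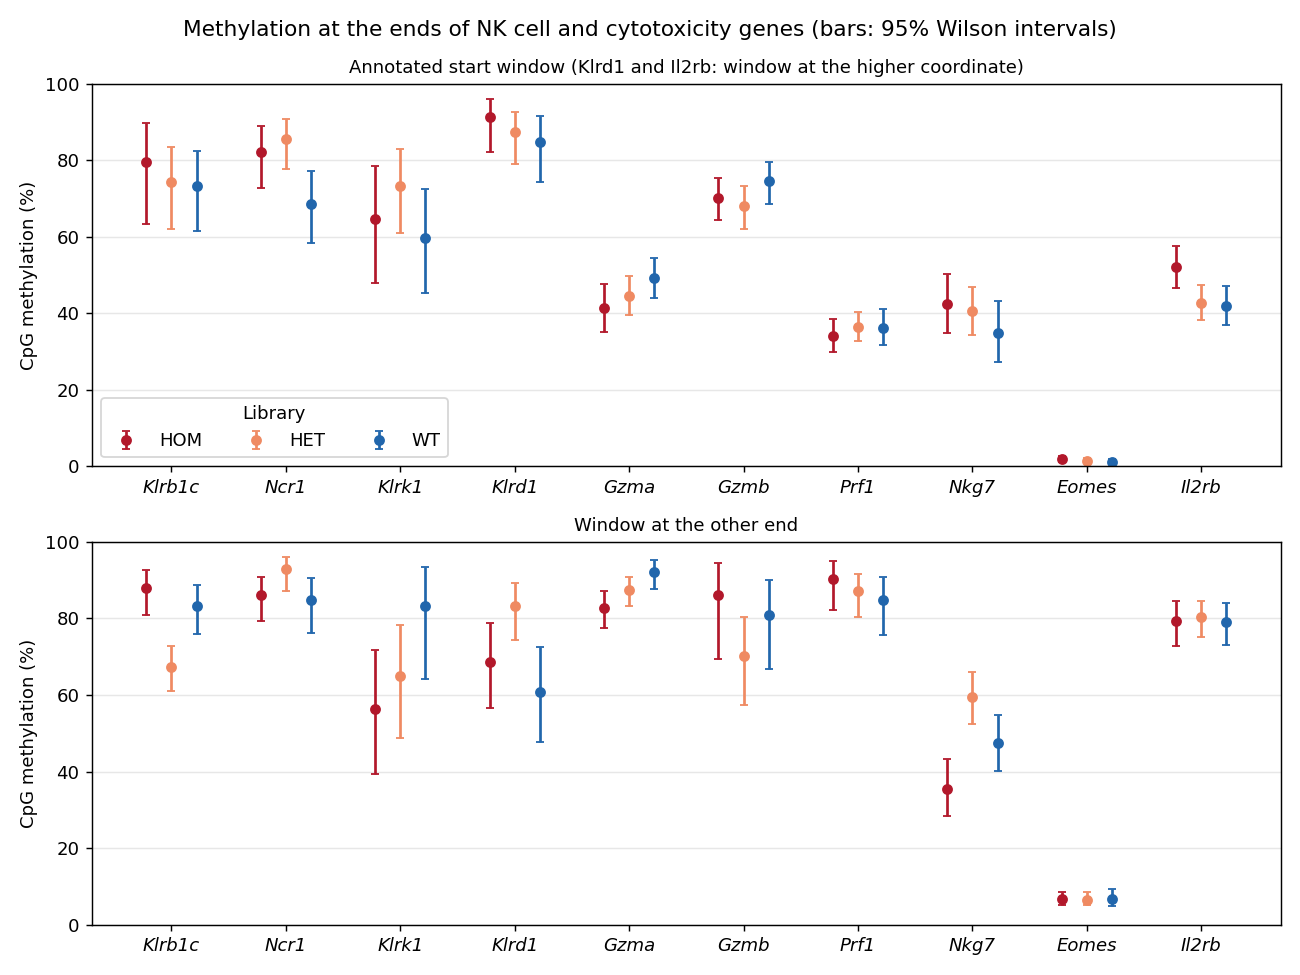
CpG methylation in percent at the windows at the ends of the 10 genes in HOM, HET and WT, with 95% Wilson intervals; the upper panel shows start windows (for Klrd1 and Il2rb the end at the higher coordinate) and the lower panel the opposite ends. Eomes lies below 10% in every library, the granule genes Gzma, Prf1 and Nkg7 lie between 34.1% and 49.3% at the start, and the far end of Nkg7 spreads from 35.4% in HOM to 59.4% in HET.

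The strand of Klrd1 and Il2rb was not assigned, so their ends are given by coordinate. Klrd1, the CD94 chain that pairs with NKG2 receptors, stood at 68.8% in HOM, 83.2% in HET and 60.7% in WT at the lower end, and at 91.2%, 87.2% and 84.8% at the higher end. At the lower end of Klrd1, HET minus WT was 22.44 points (7.81 to 36.92) over 95 and 56 reads, and it did not pass the test (Fisher's exact test, adjusted p = 0.0563). Il2rb, the beta chain of the interleukin 2 and interleukin 15 receptors, stood at 79.3% in HOM, 80.3% in HET and 79.1% in WT at the lower end. At its higher end Il2rb stood at 52.1% of 328 reads in HOM, 42.8% of 430 in HET and 41.9% of 346 in WT. HOM minus WT was 10.23 points there (2.69 to 17.61), which did not pass the test (Fisher's exact test, adjusted p = 0.0701).

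Few of the gene ends passed the call used here, which asks for 10 points or more and an adjusted p below 0.05 from Fisher's exact test (two-sided, Benjamini-Hochberg over all ends). Windows needed 3 CpGs and 30 reads in each library, which 18 of the 20 ends had; the far ends of Klrk1 and Gzmb did not. Between HOM and WT, 0 of 18 ends were called, where 5.22% of all 37413 ends were. Between HET and WT 1 of 18 was called, where 2.52% of all ends were, and between HOM and HET 2 of 18, where 4.34% were. With 18 ends, counts of 0 to 2 lie near those shares. The median difference of the 18 ends was 3.07 points in HOM minus WT, against -1.64 over all ends, with 12 higher and 6 lower. Over the 103 ends of a wider NK and cytotoxicity list, described last, it was of the opposite sign, -3.04 points. In HET minus WT it was 1.13 points, against -0.17 over all ends, and in HOM minus HET -0.43 points, against -1.40.

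The far end of Nkg7 was the clearer of the called ends. It stood at 35.4% of 158 reads in HOM (28.4 to 43.2), 59.4% of 202 in HET (52.5 to 65.9) and 47.4% of 173 in WT (40.1 to 54.8). HOM lay lowest, HET highest and WT between them. HOM minus HET was -23.96 points (-33.56 to -13.62; Fisher's exact test, adjusted p = 0.000429), and each of the 11 CpGs with reads in both was lower in HOM. The call was lost when counts were divided by the number of CpGs that a read of 150 bp covers. Under that setting 0.00535% of all ends were called between HOM and HET. HOM minus WT was -11.96 points (adjusted p = 0.166) and HET minus WT 12.01 points (adjusted p = 0.181), and neither passed Fisher's exact test. Over Nkg7 with its flanks the level was 58.5% in HOM, 67.2% in HET and 61.4% in WT, with HOM minus HET at -8.70 points (-11.83 to -5.56) and HET minus WT at 5.84 points (2.64 to 9.04).

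The other called end was the far end of Klrb1c, at 87.9% of 124 reads in HOM, 67.2% of 247 in HET and 83.2% of 131 in WT. HET minus WT was -16.00 points (-24.15 to -6.81; Fisher's exact test, adjusted p = 0.0254) and HOM minus HET 20.70 points (11.84 to 28.34; adjusted p = 0.000516). Both calls turned on 3 neighbouring CpGs, at positions 128778449, 128778555 and 128778663, which had 0 reads in HOM. HET had 6 of 22, 3 of 25 and 11 of 38 reads methylated at them, and WT had 0 reads at the first, 14 of 21 at the next and 11 of 18 at the last. Without CpGs that had 0 reads in 1 library and at least 5 in another, HET minus WT was -1.18 points and HOM minus HET -2.22 points, and neither was called.

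Among the other far ends, that of Gzma stood at 82.8% in HOM, 87.4% in HET and 92.2% in WT. HOM minus WT was -9.46 points (-15.52 to -3.28; Fisher's exact test, adjusted p = 0.0341), just short of 10 points and so not called, and it was -5.76 points with the genome-wide difference subtracted. The far ends of Prf1 (90.4% in HOM, 87.1% in HET, 84.7% in WT) and Ncr1 (86.1%, 92.8% and 84.7%) were highly methylated. That of Eomes was nearly unmethylated, at 6.67% in HOM, 6.57% in HET and 6.79% in WT.

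In bins of 500 bp, Eomes stayed below 10% from 2000 bp before its start to 1000 bp after it. In the 500 bp before the start, Prf1 stood at 15.5% in HOM, 20.2% in HET and 14.9% in WT. Nkg7 stood there at 5.5% of 55 reads in HOM, 5.3% of 75 in HET and 15.2% of 46 in WT. Gzma dipped lowest in the bin that begins 1500 bp before its start, at 12.0% in HOM, 24.0% in HET and 18.8% in WT.

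**Figure D3:**
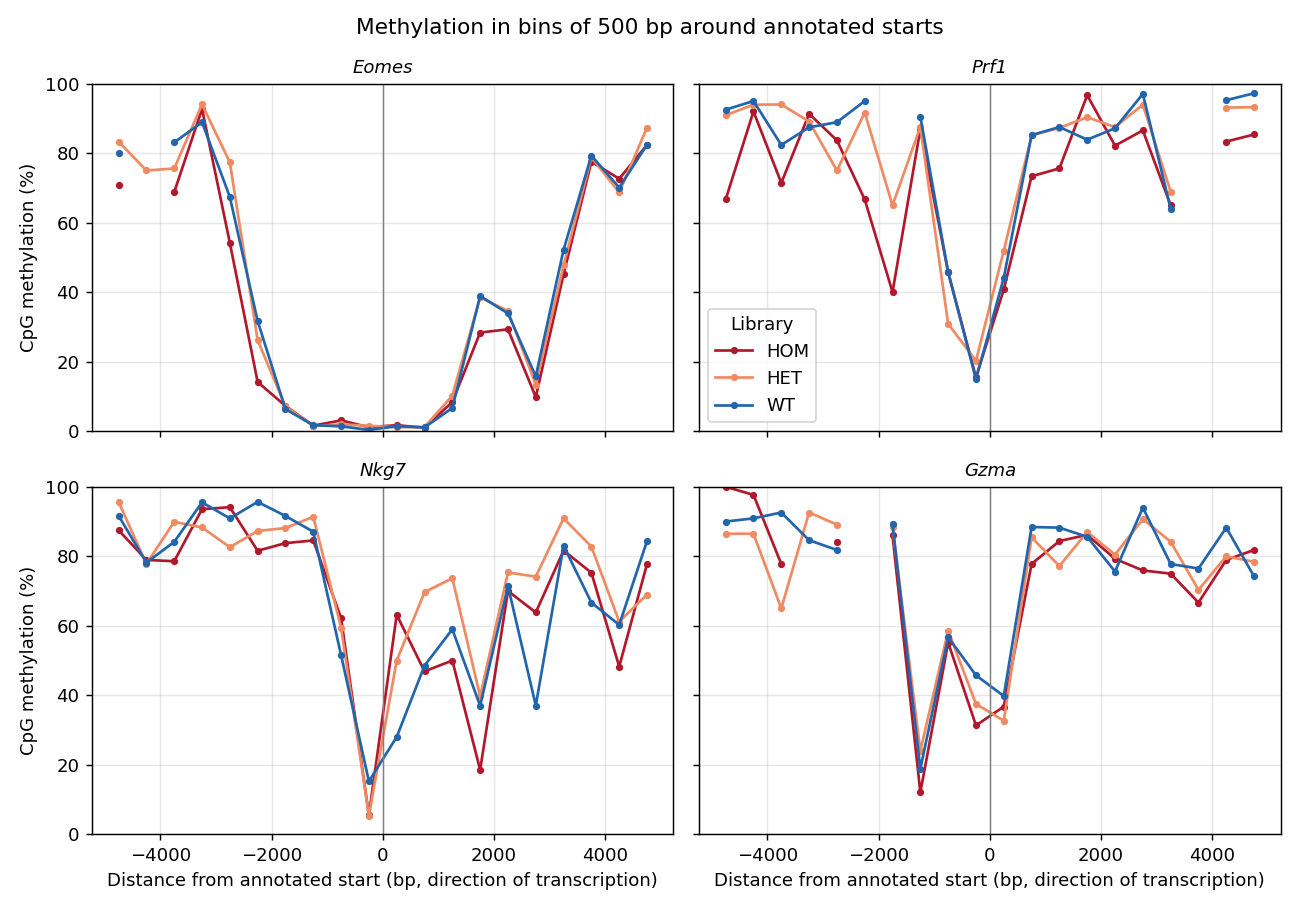
CpG methylation in percent in bins of 500 bp against distance from the annotated start, in the direction of transcription, for Eomes, Prf1, Nkg7 and Gzma in HOM, HET and WT; gaps are bins with under 10 reads. Eomes shows a wide unmethylated valley. Prf1 and Nkg7 are lowest in the last bin before the start (5.3% to 15.2% for Nkg7). Gzma is lowest in the bin that begins 1500 bp before its start.

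The bodies of these genes, the spans without the end windows, were mostly less methylated in HOM, as bodies of all genes were. Of 9 bodies with enough CpGs, 7 were lower in HOM than in WT and 8 lower in HOM than in HET, against 86.6% and 85.8% of all bodies. Between HOM and WT 0 of 9 were called, where 3.22% of all 18301 bodies were, between HET and WT 1, where 1.34% were, and between HOM and HET 0, where 2.33% were. The median difference was -5.18 points in HOM minus WT, against -3.24 over all bodies, and -3.45 in HOM minus HET, against -2.71.

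The body of Prf1 stood at 82.0% of 1056 reads in HOM, 86.1% of 1275 in HET and 89.9% of 804 in WT. HOM minus WT was -7.92 points (-11.00 to -4.75; Fisher's exact test, adjusted p = 5.711e-06), short of the 10 points of a call. With the genome-wide difference subtracted it was -4.22 points, and with counts divided as above its adjusted p was 0.0652 by Fisher's exact test. The body of Klrk1 stood at 73.6% in HOM, 82.8% in HET and 81.2% in WT, with HOM minus HET at -9.27 points (-14.85 to -3.81) and HOM minus WT at -7.67 points (-13.52 to -1.83). These values for Klrk1 depended on the CpGs used: in HOM minus WT the difference was -10.86 points with CpGs of at least 5 reads, -4.41 without CpGs at 10% or less in 1 library and 80% or more in another, -3.97 with the genome-wide difference subtracted and 0.05 as a mean over CpGs. HOM minus HET ranged from -10.05 to -6.07 points under the same settings.

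The body of Gzmb stood at 78.8% in HOM, 88.1% in HET and 84.2% in WT, with HOM minus HET at -9.26 points (-14.23 to -4.36), or -6.06 with the genome-wide difference subtracted. That of Il2rb, the best covered, stood at 72.4% of 5796 reads in HOM, 79.2% of 6768 in HET and 76.8% of 5070 in WT. HOM minus WT was -4.44 points (-6.08 to -2.81) and HET minus WT 2.44 points (0.93 to 3.95) there, so the interval of each excluded 0 and the signs were opposite. With the genome-wide difference subtracted, HOM minus WT was -0.75 points. The body of Eomes stood at 38.2% in HOM, 41.7% in HET and 36.3% in WT, and was the least methylated of the 9. The called body was that of Klrb1c, at 67.9% of 84 reads in HOM, 68.8% of 314 in HET and 79.0% of 419 in WT. HET minus WT was -10.21 points there (-16.65 to -3.80; Fisher's exact test, adjusted p = 0.011), and 0.41 points without the CpGs that lacked reads in 1 library.

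Gene by gene with 5 kb on each side, 9 of 10 genes were lower in HOM than in WT, as were 87.2% of all genes. The median of HOM minus WT was -2.59 points, against -3.34 over all genes. The lowest value was that of Klrk1, at 71.5% in HOM, 78.1% in HET and 78.4% in WT (HOM minus WT -6.90 points, -11.57 to -2.23). Klrk1 held 1 variant-like CpG in HOM, and the value of its body depended on the CpGs used, as given above. Klrd1 was the gene not lower in HOM, at 77.7% in HOM, 72.7% in HET and 74.7% in WT, and its interval of HOM minus WT included 0. In HET minus WT the median was -0.31 points, against -0.35 over all genes, with 6 of 10 below 0.

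**Figure D4:**
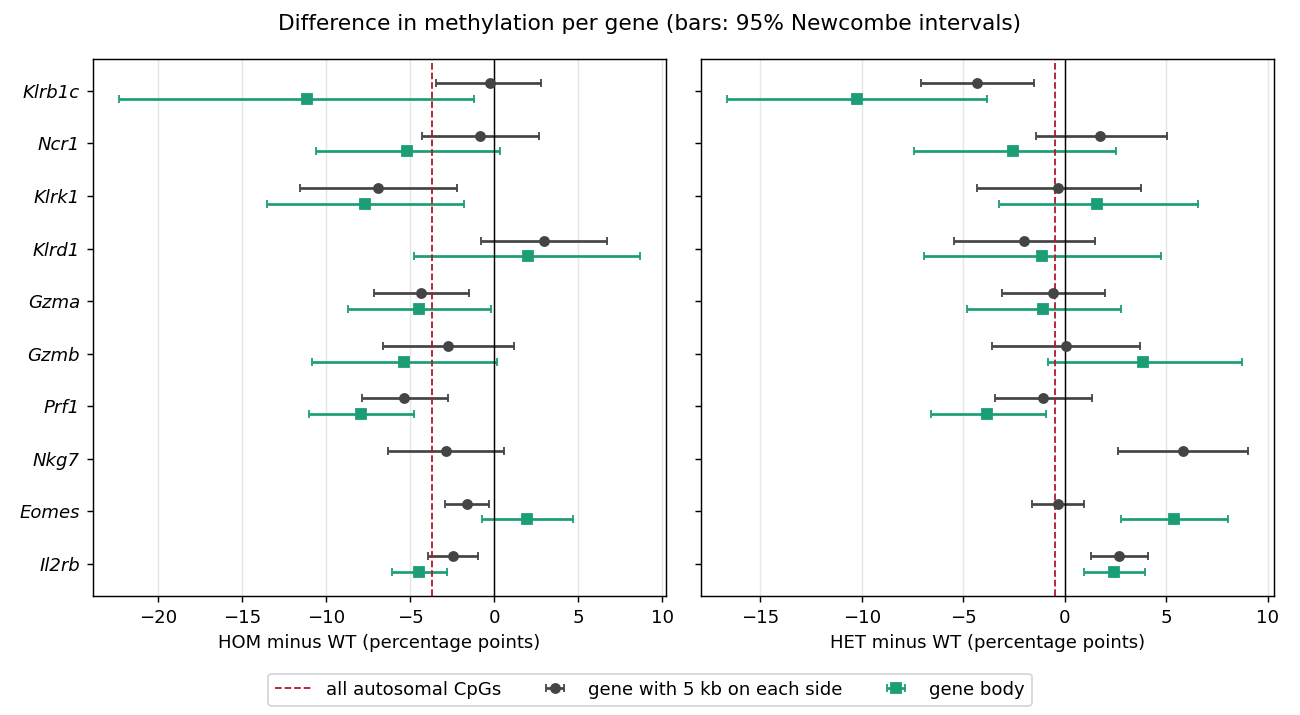
Differences in CpG methylation in percentage points, HOM minus WT (left) and HET minus WT (right), for each gene with 5 kb on each side (circles) and for its body (squares), with 95% Newcombe intervals; the dashed line is the difference over all autosomal CpGs. Most values in HOM minus WT lie left of 0 near the dashed line at -3.70 points, and those of HET minus WT scatter around 0.

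Low-methylated runs spanned 4 or more CpGs and 100 bp or more, with the level of each 3 successive CpGs, averaged over the libraries, under 50%. They lay at 6 of the genes with enough reads and at Klrb1c with too few. None was found at Ncr1, Klrk1 or Gzmb. Of 19 runs with enough reads, 1 was called between HOM and WT, where 4.51% of all 82894 runs were, 0 between HET and WT, where 3.56% were, and 1 between HOM and HET, where 4.46% were. The median difference was 1.65 points in HOM minus WT, against -0.08 over all runs.

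Il2rb held 7 of the 19 runs, and all 7 had a higher level in HOM than in WT and in HET than in WT, while 50.9% of all runs were lower in HOM than in WT. The called one lies inside the gene (chr15:78494859-78495358, 10 CpGs). It stood at 41.7% of 139 reads in HOM (33.9 to 50.04), 38.3% of 115 in HET (29.9 to 47.4) and 24.5% of 151 in WT (18.3 to 31.9). HOM minus WT was 17.22 points (6.40 to 27.58; Fisher's exact test, adjusted p = 0.0429), and each of its 10 CpGs was higher in HOM. The call was lost with counts so divided, with at least 5 reads per CpG and with a difference of 20 points, among other settings. With divided counts, 0.0543% of all runs were called between HOM and WT. HET minus WT was 13.76 points (2.56 to 24.77) and did not pass the test (adjusted p = 0.192 by Fisher's exact test). Of the 9 CpGs with reads in both, 5 were higher in HET and 4 lower. Another run (chr15:78511988-78512305) stood at 26.5% in HOM, 15.2% in HET and 12.96% in WT, and HOM minus WT was not called (13.51 points, 2.75 to 24.11; Fisher's exact test, adjusted p = 0.135). The remaining 5 differed by 2.19 to 11.11 points in HOM minus WT, with intervals that included 0. The run at the lowest coordinate came to -0.44 points as a mean over CpGs. Of the 7 runs, 4 lie beyond the annotated ends of Il2rb.

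Prf1 held a run beyond the end of the gene (chr10:61306013-61306560, 12 CpGs). It stood at 9.15% of 164 reads in HOM (5.62 to 14.5), 21.3% of 164 in HET (15.8 to 28.2) and 14.3% of 161 in WT (9.71 to 20.5). HOM minus HET was -12.20 points (-19.93 to -4.44; Fisher's exact test, adjusted p = 0.0497), with 9 of 11 CpGs lower in HOM, and that call was likewise lost with divided counts and once the genome-wide difference was subtracted. The run at the start of Prf1 stood at 20.1% in HOM, 18.6% in HET and 17.3% in WT, and that at the start of Nkg7 at 31.1%, 29.6% and 20.9%. Both lie in the start windows given above. Gzma held 2 runs near its start, both within the span of Cdc20b as well, at 18.1% in HOM, 18.9% in HET and 20.7% in WT, and at 12.6%, 19.7% and 12.8%.

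Eomes held 5 runs, of which the wide ones around its ends were nearly unmethylated. That around the start (3335 bp, 193 CpGs) stood at 2.297% in HOM, 2.70% in HET and 2.94% in WT, and that around the far end (4271 bp, 146 CpGs) at 3.70%, 3.22% and 3.56%. The 3 between them ranged from 12.6% to 29.2% in HOM, 14.3% to 36.0% in HET and 11.5% to 37.2% in WT. The second run near Nkg7 (83 CpGs) lies beyond the gene and overlaps Cldnd2 and Etfb, and stood at 3.81% in HOM, 3.29% in HET and 2.16% in WT. Klrd1 held 1 run inside the gene, at 5.36% in HOM, 5.15% in HET and 7.69% in WT.

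**Figure D5:**
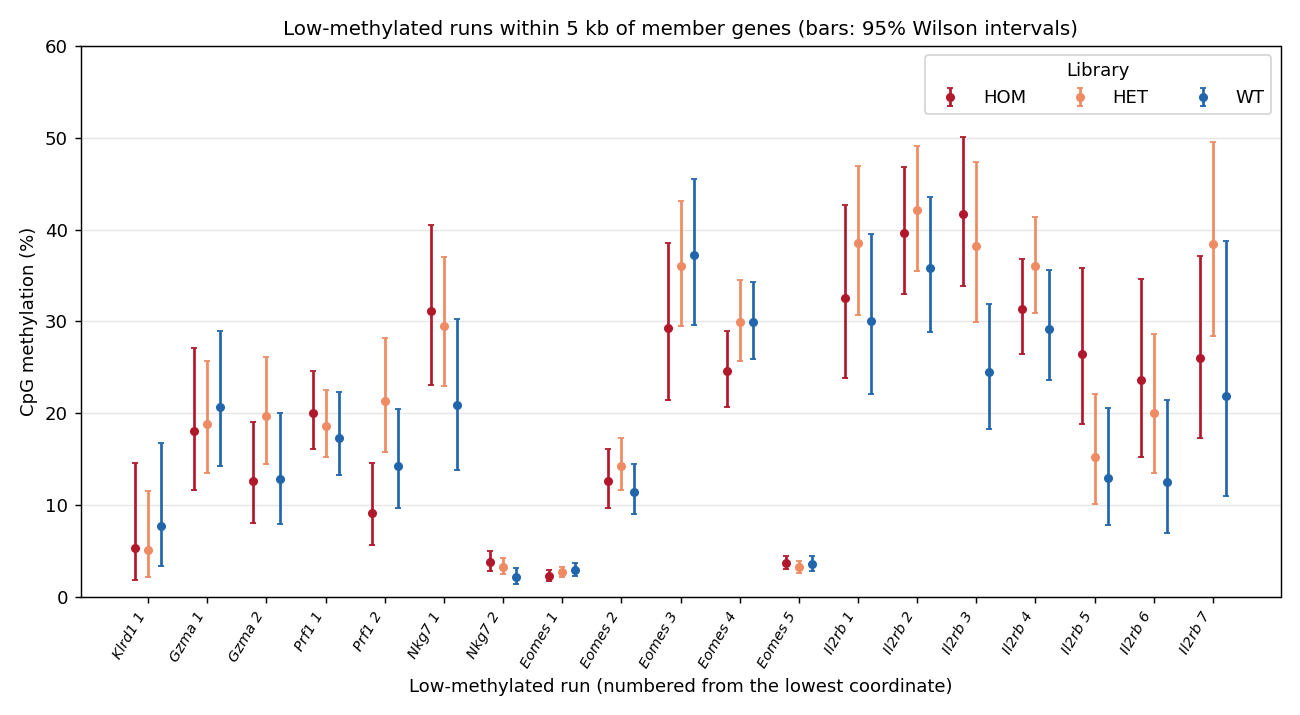
CpG methylation in percent of the 19 low-methylated runs with enough reads in HOM, HET and WT, with 95% Wilson intervals; runs of a gene are numbered from the lowest coordinate. The called run of Il2rb, its run 3, lies at 41.7% in HOM and 38.3% in HET against 24.5% in WT, and the wide runs of Eomes lie below 4%.

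The wider NK and cytotoxicity list held 64 more genes, of which 61 were in the autosomal table with 103 ends. Between HOM and WT 3 ends were called, or 2.91% against 5.22% of all ends, all lower in HOM: the start of Klrb1a, another NKR-P1 receptor, and ends of the chemokine gene Ccl4 and the cathepsin gene Ctsw. Between HET and WT 6 were called, or 5.83% against 2.52% of all ends. The starts of Ifng, which encodes interferon gamma, and Il18r1, a chain of the interleukin 18 receptor, were higher in HET. The far end of the death ligand gene Fasl and the starts of Klrc1, the inhibitory receptor NKG2A, of the transcription factor gene Nfil3 and of the granzyme gene Gzmd were lower in HET. Between HOM and HET 4 were called, or 3.88% against 4.34% of all ends, with the start of Il15ra, a chain of the interleukin 15 receptor, higher in HOM and those of Ifng, Klra3 and Gzmk lower. Ifng stood at 66.5% of 263 reads in HOM, 85.8% of 367 in HET and 71.1% of 242 in WT, and its HOM minus HET of -19.29 points had the smallest adjusted p of the list (Fisher's exact test, 2.677e-06). Klra3, a Ly49 receptor gene with close paralogs, stood at 38.1% of 84 reads in HOM, 68.3% of 101 in HET and 59.7% of 72 in WT.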

How the data were processed

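The labels' protocols describe bisulfite libraries from 200 ng of DNA sheared to about 800 bp and read from both ends over 150 bp on an Illumina instrument. In the submitters' processing notes the build is mm10, and the tools named include Bismark, Bowtie2, BWA 0.7.13, Picard and MethylDackel. Which of them made the table is not given there. The authors deposited, per the file headers and the values, raw counts of methylated and of covering reads per CpG, without normalization.

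The level of a region was the sum of its methylated reads divided by the sum of its covering reads. Gene spans came from RefSeq (GRCm38.p6), and sides were assigned from its upstream sequences. Ends, bodies and runs of all autosomal protein-coding genes were tested with Python 3.11.15, numba 0.67.0 and scipy 1.17.1, with Fisher's exact test, two-sided and adjusted by Benjamini-Hochberg over all regions of a kind. CpGs of 1 read are linked, so these p-values are too small. The test was checked on simulated counts drawn independently for each gene end. These held neither linked CpGs nor differences between animals, so the check could not show how far the p-values are too small. All 10 genes were named whatever their values. The genes, the lists and the tests were chosen with earlier results of these data known. The mean depth was 10.2 reads per autosomal CpG in HOM, 13.4 in HET and 9.52 in WT. Alternatives are given in the closing section. Blood samples were left out.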

Additional observations from a re-analysis of the deposited data

How the results depend on the processing

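No paired analysis was possible because the table holds 1 set of counts per genotype, and leaving out replicates could not be run for the same reason. Of 762 single values recomputed under the alternatives, 727 moved by less than their counting interval and 30 moved further. The other 5 were called differences that turned in sign, all at Klrb1c. Among the 727 are 138 values with divided counts, a setting that changes only the p-value, so these could not move. Counting differences that were not called, 64 values changed sign. The body of Klrb1c in HET minus WT came to 1.02 points as a mean over CpGs and 0.41 points without CpGs lacking reads in 1 library, an alternative chosen after seeing the data. Its far end in HOM minus HET came to -6.78 points as a mean over CpGs, -0.59 with at least 5 reads per CpG and -2.22 without CpGs lacking reads in 1 library.

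Counts of called ends stayed at 0 between HOM and WT under every alternative. The share of all ends called ran from 0.016% with divided counts to 6.47% with windows of 2000 bp. With 16 to 19 ends tested, 0 lies near such shares. Between HET and WT (1 called) the counts were 0 at 20 points and as a mean over CpGs. They were also 0 with counts divided by the CpGs of 1 read, with at least 5 reads per CpG and without CpGs lacking reads. In that order, 0.412%, 1.1%, 0.0107%, 1.5% and 1.88% of all ends were called. With windows of 500 bp outside 2 were called, where 1.46% of all ends were, and with 2000 bp 3, where 3.39% were. Between HOM and HET (2 called) they were 1 (Nkg7) as a mean over CpGs, with at least 5 reads and without CpGs lacking reads. Under these settings 2.49%, 3.4% and 3.81% of all ends were called. With divided counts 0 were called, where 0.00535% of all ends were, and with windows of 2000 bp 4, where 5.14% were. Bodies between HET and WT (1 called) came to 0 at 20 points, as a mean over CpGs, with the genome difference subtracted, with divided counts, with at least 5 reads and without CpGs lacking reads. In that order, 0.0492%, 0.366%, 1.22%, 0.208%, 0.821% and 1.12% of all bodies were called. Bodies between HOM and WT and between HOM and HET (0 called) came to 1, Klrk1, with at least 5 reads. In that setting 2.47% of all bodies were called between HOM and WT. Runs between HOM and WT (1 called) came to 0 at 20 points, with divided counts, with at least 5 reads, with a run limit of 30% and when segmented on the library not compared. In that order, 2.54%, 0.0543%, 3.89%, 2.09% and 4.96% of all runs were called. Runs between HET and WT (0 called) came to 1, in Il2rb, when segmented on HOM, where 3.76% of all runs were called. Runs between HOM and HET (1 called) came to 0 at 20 points, with the genome difference subtracted, with divided counts, with at least 5 reads, without CpGs at 10% or less in 1 library and 80% or more in another, and with a run limit of 30%. The cause of these changes was not tested. With divided counts, 0 of the calls of the 10 genes held, and the calls of the wider list were not recomputed. That setting called 0.0107% of all ends between HET and WT and 0.00535% between HOM and HET. It called 0.0543% of all runs between HOM and WT and 0.208% of all bodies between HET and WT. Depth limits the far ends of Klrk1 (24 to 37 reads per library) and Gzmb (29 to 57), which could not be tested, and the starts of Klrb1c and Klrk1 (34 to 67).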
